A study of Mus musculus with 5 samples.

Results

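C2C12 is a line of mouse myoblasts that leaves the cell cycle and fuses into multinucleated myotubes when serum is lowered. The comparison described here set C2C12 cells at day 4 after the induction of differentiation beside cells at day 2, both kept in 2% horse serum. Each stage had 4 arrays, so 8 of the 20 arrays of the series belong to the comparison, and the other 12 held day 1, confluent and proliferating cells. All stages were the same unmodified line, and every array carried a stage beside 1 common RNA pool made from 4 proliferating replicates harvested at 70 to 80% confluence. The labels state 4 biological replicates per stage, 2 in each dye, but number none of them. The arrays held 343 probes with a mouse miRNA name, of which 180 passed the detection rule at 1 or more stages and were tested, and 163 were not.

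MicroRNAs are RNAs of about the length of the sequences below that guide a silencing complex to messenger RNAs, mostly by pairing of the seed, bases 2 to 8 from the 5′ end. The myomiRs miR-1, miR-133 and miR-206 are switched on by myogenic transcription factors during differentiation and repress genes that oppose it. The miR-17-92 cluster is driven by MYC and E2F and is typical of dividing cells, and miR-221 and miR-222 target the cell cycle inhibitor p27. The question of the comparison is how far the miRNA profile still moved between day 2 and day 4.

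The mature sequences below are those of the miRNAs whose values carry the results, taken from RefSeq on GRCm38.p6, with the seed in capitals. The array's names are older, and each sequence is that of the mature arm taken to carry the older name (miR-18 is now miR-18a-5p). The 12 mature forms include the myomiRs for which a sequence is shown.
miR-206-3p: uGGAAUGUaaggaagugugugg
miR-133b-3p: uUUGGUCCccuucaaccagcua
miR-26a-5p: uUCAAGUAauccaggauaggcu
miR-191-5p: cAACGGAAucccaaaagcagcug
miR-31-5p: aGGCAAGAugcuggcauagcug
miR-182-5p: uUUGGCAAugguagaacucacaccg
miR-183-5p: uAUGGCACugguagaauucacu
miR-17-5p: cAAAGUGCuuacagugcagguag
miR-20a-5p: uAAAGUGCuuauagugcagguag
miR-18a-5p: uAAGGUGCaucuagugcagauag
miR-221-3p: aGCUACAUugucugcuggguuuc
miR-222-3p: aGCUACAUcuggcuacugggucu
Among these, miR-17-5p and miR-20a-5p share 1 seed and are the same at 21 of 23 positions, and miR-221-3p and miR-222-3p share another seed and are the same at 11 of 23 positions. The seed of miR-18a-5p differs from that of miR-17-5p, and the mature forms are the same at 17 of 23 positions counted from the 5′ end. Such close sequences can cross-hybridise on an array, which the files do not let one measure. The mature forms of miR-17, miR-18a and miR-20a lie within 522 bases at chr14:115043684-115044205 on the plus strand. Those of miR-206 and miR-133b lie within 3801 bases at chr1:20679055-20682855 on the plus strand. Those of miR-182 and miR-183 lie within 3771 bases at chr6:30165962-30169732 on the minus strand, and those of miR-221 and miR-222 within 617 bases at chrX:19146307-19146923 on the minus strand. miR-31-5p lies at chr4:88910614-88910635 on the minus strand, miR-191-5p at chr9:108568325-108568347 on the plus strand, and miR-26a-5p has 2 loci, at chr9:119031811-119031832 and chr10:126995543-126995564, both on the plus strand.

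Values are log2 ratios of a stage to the proliferating pool, so a ratio of 1 stands for a level 2 times that of the pool, and a difference of 2 such ratios compares the stages. Per-array values have each probe's dye term removed. The direction of the ratios is likely rather than given, because the dye fields of the labels are the same for every stage and cannot hold for 2 replicates in each dye. The stage was taken to be in the channel farther from the same dye's channel of the proliferating arrays, with distance gaps of 0.0607 to 0.189 over 261 probes on the 8 arrays. This put 2 arrays of each stage in red and 2 in green. Since the muscle-specific miRNAs help to make that choice, it was repeated without them: all 8 arrays kept their side, with gaps of 0.00596 (day 4 array 3) to 0.0832. Day 1 arrays 2 and 4 changed side in that repeat, and array 4 had a gap of 0.00742 even with these miRNAs. By this rule, the direction of the day 1 ratios, and so of all comparisons with day 1, is therefore less certain. Red over green ratios correlated with the authors' deposited day 1 values at -0.769 for array 2 and 0.600 for array 4. These signs match the side chosen with the muscle-specific miRNAs, which were among the 180 probes correlated. All 8 arrays of days 2 and 4 also matched the authors' side. Day 2 array 2 stood apart, mainly from day 2 array 3. Across 180 probes the day 4 arrays correlated with each other at 0.768 to 0.906, and day 2 arrays 1, 3 and 4 at 0.780 to 0.834. Day 2 array 2 correlated with array 1 at 0.778, with array 4 at 0.734 and with array 3 at 0.489. With day 1 array 4 it correlated at 0.824. All these arrays share the pool, and probes are not independent replicates. Differences of named miRNAs and list medians that moved by over 1.5 times or changed sign without day 2 array 2 are also given without it. The median over all 180 probes was 0.01 without it.

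No miRNA passed the test between day 4 and day 2. Of the 180 probes, 0 were called at a Benjamini-Hochberg adjusted p under 0.05 (0.00%), and the smallest adjusted p was 0.250. Before adjustment, 13 probes had p under 0.05 (7.22%), 7 with higher ratios at day 4 (3.89%) and 6 with lower ones (3.33%). The differences ran from -0.67 (miR-31) to 0.66 (miR-376b*), with a median of -0.03 and an SD of 0.211 over probes. A missed threshold does not show that levels were the same, so the intervals set the limit. The 95% interval lay within a difference of 1 log2 unit, a change of 2 times, for 175 probes (97.2%), and within 0.5 for 82 (45.6%). Of the 180 probes, 31 were detected on under 3 arrays of both day 4 and day 2, and background correction shrinks the ratios of such dim probes. Among the other 149, 145 intervals lay within 1 log2 unit and 70 within 0.5. The 5 probes whose interval passed 1 were miR-376b*, miR-31, miR-422b, miR-16 and miR-1. Half-widths ran from 0.243 to 0.894, with a median of 0.375. For a typical probe, a difference below that size could not be told from 0 even before adjustment, and a call after adjustment needed a larger one.

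**Figure D1:**
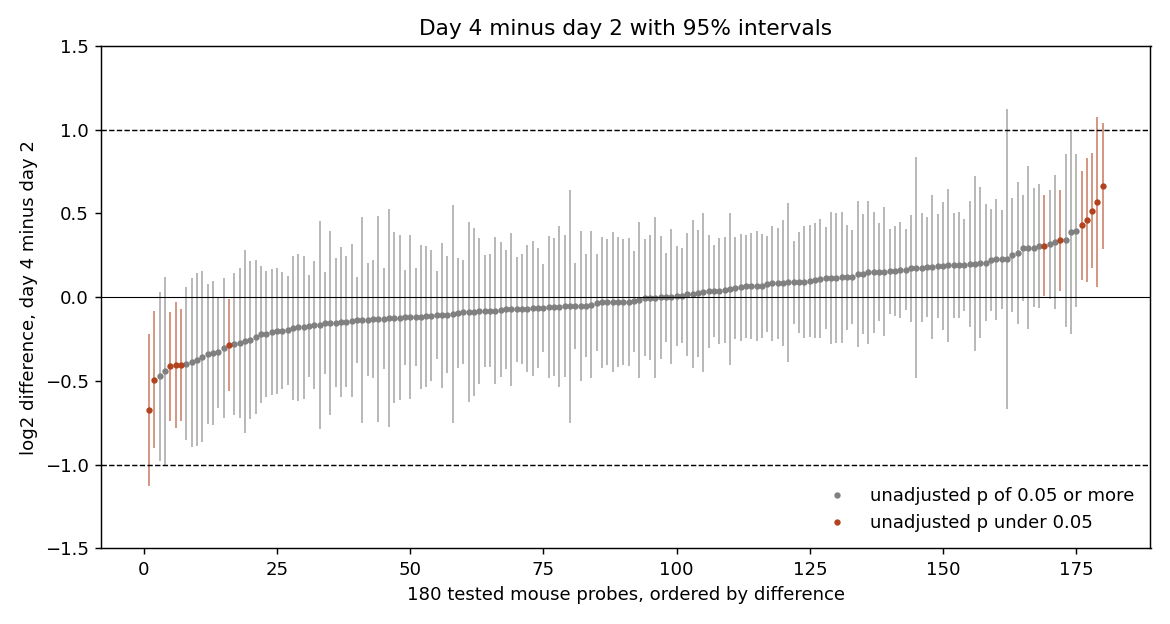
Log2 difference, day 4 minus day 2, for the 180 tested mouse probes in order of size (x axis, rank), with 95% intervals from limma (y axis, log2 units). Coloured points are the 13 probes at an unadjusted p under 0.05, dashed lines mark differences of 1 and -1, and 175 intervals lie between them.

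The same fit gave other distances between stages. Between day 4 and day 1, 16 of 180 probes were called (8.89%), 6 with higher and 10 with lower ratios at day 4, and between day 2 and day 1 only miR-133a/miR-133b was called (0.556%). Without day 4 array 4 the count for day 4 against day 1 was 7, and for day 2 against day 1 it was 0 without day 2 array 1 and 2 without any of the other day 2 arrays. Differences beyond 0.5 log2 units were found for 4 probes from day 2 to day 4, for 7 from day 1 to day 2 and for 24 from day 1 to day 4. These comparisons share arrays, and those with day 1 rest on day 1 arrays 2 and 4, which changed side without the muscle-specific miRNAs. The step from day 2 to day 4 was tested directly against the step from day 1 to day 2, and 0 of 180 probes were called (0.00%), with 4 at an unadjusted p under 0.05. The interval of this difference lay within 1 log2 unit for 131 probes.

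Of the muscle-specific miRNAs, miR-1, miR-206 and miR-133a/miR-133b stood far above the pool at both stages, miR-499 less so and miR-486 close to it. Against the pool, 51 of the 180 probes were called at day 4 (28.3%) and 36 at day 2 (20%), in either direction. Of the 5 tested, 4 were called above the pool at day 4 and 4 at day 2, where 15.6% and 12.8% of all probes were called above it. None was called between the stages, although all 5 mean differences were positive, with a median of 0.23 against -0.03 over all 180 probes. Under scale normalization between arrays, 3 of these differences turned negative, that of miR-1 to -0.13, that of miR-133a/miR-133b to -0.22 and that of miR-206 to -0.17.

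miR-206, a skeletal muscle miRNA, had ratios of 3.68, 3.74, 4.54 and 4.67 on the day 4 arrays, against 4.47, 3.88, 3.21 and 3.51 on the day 2 arrays. The stages overlapped, and the highest day 2 array lay between the day 4 arrays. Mean ratios were 4.16 ± 0.52 at day 4 and 3.77 ± 0.54 at day 2 (SD, n = 4 each), levels of 17.8 and 13.6 times the pool. The difference was 0.39 (95% interval -0.22 to 1.00, adjusted p = 0.835), and an exact permutation test over the 8 arrays, two-sided, gave p = 0.314. With 1 array left out at a time, the difference ran from 0.19 (without day 2 array 3) to 0.64 (without day 2 array 1). For all 5 muscle-specific miRNAs the smallest p this test allows is 0.0286.

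The probe shared by miR-133a and miR-133b, which repress SRF and nPTB in myoblasts, had ratios of 4.24, 3.86, 3.32 and 4.04 at day 4, against 4.11, 3.60, 3.03 and 3.54 at day 2. Every day 4 value lay within or just above the day 2 range. The means were 3.87 ± 0.39 at day 4 and 3.57 ± 0.44 at day 2 (SD, n = 4 each), and the difference was 0.29 (95% interval -0.19 to 0.78, adjusted p = 0.835, exact permutation p = 0.486). That permutation test used ratios with the dye term kept, and with it removed the permutation p was 0.371. With the stage in red it was 0.73 and in green -0.15, and with 1 array left out it ran from 0.10 (without day 2 array 3) to 0.49 (without day 4 array 3). From day 1, where this probe stood at 2.45 ± 0.18 (SD, n = 4), it rose by 1.12 to day 2 (adjusted p = 0.0151) and by 1.42 to day 4 (adjusted p = 0.000737). The muscle-specific miRNAs themselves helped to set the side of day 1 arrays 2 and 4, which changed without them. The day 1 level and these p-values are therefore not independent of that choice. The later step minus the earlier one was -0.83 (SE 0.41), which did not pass the test.

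miR-1, which targets HDAC4, was the most variable tested probe at both stages. Its ratios were 2.62, 1.15, 1.22 and 3.31 at day 4, against 2.36, 3.07, 0.97 and 0.98 at day 2. In each stage 2 arrays lay near 1 and 2 above 2, so the split ran within the stages. The SDs of 1.07 at day 4 and 1.04 at day 2 compare with medians over the 180 probes of 0.210 at day 4 and 0.227 at day 2. The difference was 0.23 (95% interval -0.67 to 1.12, exact permutation p = 0.686). It was 0.66 without day 2 array 2 and it turned to -0.21 without day 4 array 4, to -0.09 without day 2 array 3 and to -0.08 without day 2 array 4. The pool channel of this probe passed the detection limit on 2 of 4 day 4 arrays and 1 of 4 day 2 arrays, so on the other arrays its ratio to the pool is a lower bound.

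miR-499, from an intron of a slow myosin gene, had ratios of 0.88, 0.37, 0.75 and 0.85 at day 4, against 1.13, 0.46, 0.54 and -0.08 at day 2. The day 2 arrays were the more scattered and spanned the day 4 values. The difference was 0.20 (95% interval -0.32 to 0.72, exact permutation p = 0.514), and it was -0.01 without day 2 array 4 and 0.42 without day 2 array 1. The stage channel was above background on 3 of 4 day 4 arrays and 1 of 4 day 2 arrays. miR-486, enriched in striated muscle, lay close to the pool, at 0.09 ± 0.04 at day 4 and 0.03 ± 0.12 at day 2 (SD, n = 4 each). Its exact permutation p was 0.686 with the dye term kept and 0.429 with it removed.

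**Figure D2:**
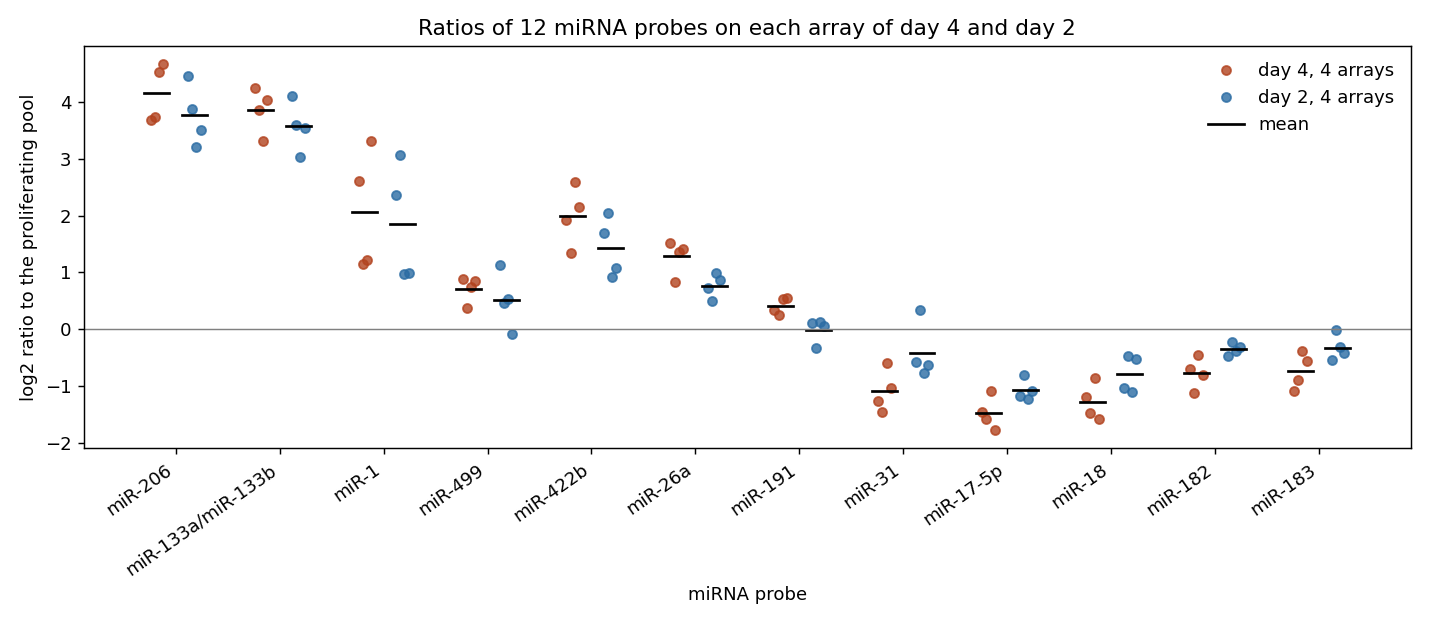
Log2 ratio to the proliferating pool (y axis) of 12 miRNA probes on each of the 4 day 4 arrays (left, red) and the 4 day 2 arrays (right, blue), with stage means as black lines. The points of the stages overlap for 11 of the 12 probes, and for miR-191 all day 4 points lie above the day 2 points.

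Among probes with higher ratios at day 4, miR-26a, which targets the histone methyltransferase EZH2 in myogenesis, had the smallest unadjusted p of those well above background. Its ratios were 1.52, 0.84, 1.37 and 1.42 at day 4, against 0.72, 0.49, 1.00 and 0.86 at day 2. At day 4, 3 of 4 arrays lay above every day 2 array. The means were 1.29 ± 0.30 at day 4 and 0.77 ± 0.22 at day 2 (SD, n = 4 each), 2.44 and 1.70 times the pool. The difference of 0.52 (95% interval 0.17 to 0.86), or 1.43-fold, had an adjusted p of 0.337 and was alike in both dyes (0.43 with the stage in red and 0.60 in green). Under the 30 alternative settings it ran from 0.42 to 0.90, and the lowest adjusted p was 0.0661. Between day 4 and day 1 miR-26a rose by 0.68 (adjusted p = 0.0103).

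miR-422b, an older name of a product of the miR-378 hairpin within Ppargc1b, had ratios of 1.93, 1.34, 2.58 and 2.15 at day 4, against 1.69, 2.05, 0.92 and 1.08 at day 2. The lowest day 4 array fell inside the day 2 range. The means were 2.00 ± 0.52 at day 4 and 1.43 ± 0.53 at day 2 (SD, n = 4 each), and the difference was 0.57 (95% interval 0.06 to 1.08, adjusted p = 0.554). It was uneven between the dyes, at 0.15 with the stage in red and 0.98 in green, and it ran from 0.36 (without day 4 array 3) to 0.80 (without day 4 array 2) with 1 array left out.

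miR-191, a broadly expressed miRNA, had ratios of 0.34, 0.25, 0.53 and 0.55 at day 4, against 0.10, -0.33, 0.13 and 0.06 at day 2. The stages did not overlap. The difference was 0.43 (95% interval 0.10 to 0.75, adjusted p = 0.455), with 0.40 in red and 0.46 in green. Without day 2 array 2, whose value was the lowest, it was 0.32. Probes whose arrays did not overlap between the stages numbered 6 of 180 (3.33%). Day 4 lay above day 2 for 5 of them (2.78% of probes), miR-191, miR-30b, miR-715, miR-376b* and miR-425, and below it for miR-196a (0.556%). With the dye term kept, 2 probes did not overlap (1.11%), miR-425 and miR-196a.

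Some of these rest on dim signal. miR-376b*, with the highest difference of all at 0.66, was above background in the stage channel on 1 of 4 day 4 arrays and 0 of 4 day 2 arrays, and in the pool channel on none of the 8. miR-425, with a difference of 0.46, was above background in the stage channel on 0 of 4 arrays at either stage. No fold is given for either. miR-467b and miR-669a, from a large repeated cluster in an intron of Sfmbt2, had differences of 0.34 and 0.31 with adjusted p of 0.554 and 0.621. Both lay near the pool, at 0.20 and 0.13 at day 4 and -0.14 and -0.18 at day 2. Related copies in that cluster have near-identical sequences that probes may not separate.

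miR-31, which targets Myf5 in muscle stem cells, had the most negative difference. Its ratios were -1.26, -1.45, -0.59 and -1.03 at day 4, against -0.57, 0.33, -0.77 and -0.63 at day 2. Day 2 array 2 alone lay above the pool. The means were -1.08 ± 0.37 at day 4 and -0.41 ± 0.50 at day 2 (SD, n = 4 each), or 0.472 and 0.753 times the pool. The difference was -0.67 (95% interval -1.13 to -0.22, 0.627-fold, adjusted p = 0.337). It was -0.41 without day 2 array 2, and -1.14 with the stage in red against -0.21 in green. Between day 4 and day 1, miR-31 fell by 1.13 (adjusted p = 0.00304). Probes named for miR-31 of other species, without a mouse name, differed less between day 4 and day 2. The dre-miR-31 probe differed by -0.03 (95% interval -0.48 to 0.42). A probe named for cel-miR-72 and gga-miR-31 differed by -0.24 (95% interval -0.66 to 0.17).

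The miR-17-92 cluster and its paralogues lay below the pool at both stages, with 5 of 8 tested probes called below it at day 4 and 5 at day 2, where 12.8% and 7.22% of all probes were called below it. Between the stages none was called, and 2 of the 8 had an unadjusted p under 0.05, both lower at day 4, where 3.33% of all probes were. The median difference was -0.32, with 7 of 8 negative, beside a median of -0.03 and 98 of 180 negative over all probes. Without day 2 array 2 the cluster's median was -0.22, with 6 of 8 negative. miR-17-5p, which with miR-20a targets E2F1, had ratios of -1.46, -1.59, -1.08 and -1.78 at day 4, against -1.17, -0.80, -1.22 and -1.09 at day 2. Its highest day 4 value fell within the day 2 range. The means were -1.48 ± 0.29 at day 4 and -1.07 ± 0.19 at day 2 (SD, n = 4 each), and the difference was -0.41 (95% interval -0.78 to -0.03, adjusted p = 0.592).

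miR-18, from the same primary transcript, had ratios of -1.20, -1.48, -0.85 and -1.57 at day 4, against -1.04, -0.47, -1.10 and -0.53 at day 2. Of its day 4 arrays, 3 lay below every day 2 array. The difference was -0.49 (95% interval -0.90 to -0.08, adjusted p = 0.455), with -0.56 in red and -0.43 in green. miR-20a had 2 probes, with differences of -0.28 and -0.36, and the second was -0.17 without day 2 array 2. miR-106b, a paralogue, averaged -0.62 ± 0.36 at day 4 and -0.24 ± 0.55 at day 2 (SD, n = 4 each), with day 2 array 2 at 0.45. Its difference was -0.37, and -0.13 without that array. The other strand of the miR-17 hairpin, miR-17-3p, had the 1 positive difference, 0.15.

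miR-182 and miR-183, neighbours in a cluster best known from sensory organs, had lower ratios at day 4. miR-182 had -0.70, -1.11, -0.45 and -0.80 at day 4, against -0.48, -0.23, -0.38 and -0.32 at day 2. miR-183 had -1.09, -0.90, -0.38 and -0.55 at day 4, against -0.54, -0.02, -0.32 and -0.43 at day 2. In both, 1 day 4 array lay within the day 2 range. The difference was -0.41 for miR-182 (95% interval -0.74 to -0.09) and -0.40 for miR-183 (-0.74 to -0.07), each with an adjusted p of 0.455. With the stage in green these were -0.23 for miR-182 and 0.02 for miR-183, and in red they were -0.60 and -0.82. Against day 1, both fell by day 4, miR-182 by 0.69 (adjusted p = 0.00700) and miR-183 by 0.68 (adjusted p = 0.00914).

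**Figure D3:**
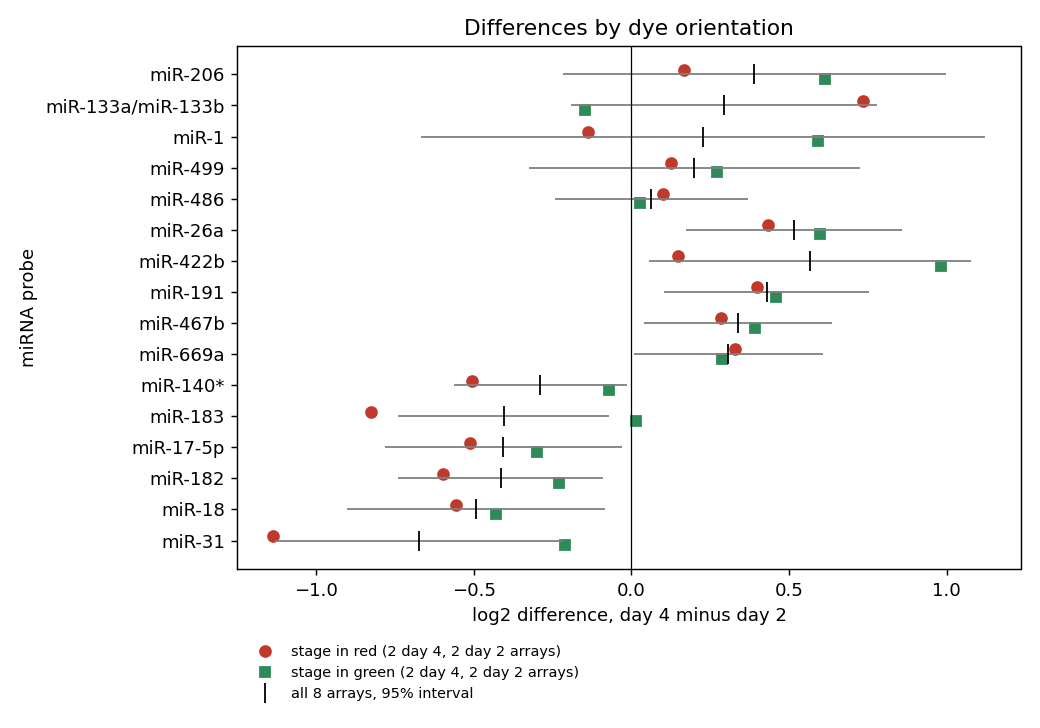
Log2 difference, day 4 minus day 2 (x axis), of 16 miRNA probes (y axis) from the arrays with the stage in red (circles) and in green (squares), 2 arrays of each stage in each dye. Black ticks and grey lines are the estimate over all 8 arrays and its 95% interval: miR-26a, miR-191 and miR-18 have both dyes close together, while miR-31, miR-183 and miR-422b have them far apart.

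The other lists held no called member between the stages. In the list of other miRNAs tied to muscle differentiation, 4 of 22 tested probes had an unadjusted p under 0.05, miR-26a, miR-422b and miR-669a higher and miR-31 lower, where 3.89% of all probes were higher and 3.33% lower. Its median was -0.12, and 0.01 without day 2 array 2. miR-222 had ratios of -1.71 to -0.51 at day 4, against -1.28 to -0.43 at day 2, which overlap widely, with a difference of -0.30 (95% interval -0.72 to 0.11), and -0.14 without day 2 array 2. Its neighbour miR-221 differed by -0.17, and the median of both was -0.24, or -0.13 without day 2 array 2. The miR-34 family, known as targets of p53, had 3 positive differences of 0.19 to 0.40, all from ratios near the pool, and miR-34c had an interval of -0.06 to 0.85. The let-7 family, markers of differentiated cells, had 7 differences between -0.08 and 0.12 and a median of -0.06 (0.03 without day 2 array 2). These 7 are the probes with a mouse name, and let-7 probes without one ran from -0.17 (dre-let-7g) to 0.32 (let-7a-e). The miR-30 family had 3 positive and 2 negative differences (median 0.16), and miR-30b, at 0.62 ± 0.22 at day 4 and 0.30 ± 0.04 at day 2 (SD, n = 4 each), was the highest. The clusters of miR-23, miR-24 and miR-27 had a median of 0.00 (0.16 without day 2 array 2), the miR-15 and miR-16 family of -0.11, the miR-29 family of -0.06 (0.18 without that array) and the imprinted Dlk1-Dio3 cluster, with 14 of 40 probes tested, of 0.04.

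miR-103 (-0.47), miR-16 (-0.44), miR-196a (-0.40) and miR-690 (-0.39) were among the 10 lowest differences, and miR-23a (0.33) and miR-34b (0.34) among the 10 highest, none with an unadjusted p under 0.05. For miR-16 and miR-690, day 2 array 2 lay above the pool, at 0.63 and 0.59, while the other 3 day 2 arrays lay below it. Without that array the difference was -0.13 for miR-16, -0.13 for miR-690 and 0.52 for miR-23a. miR-140*, lower at day 4 with an unadjusted limma p under 0.05, differed by -0.29. With 1 array left out, the difference of miR-140* ran from -0.37 to -0.20, and in the stage channel alone it was 0.67. Of markers of other cell types, 0 of 2 endothelial and 0 of 2 liver and pancreas probes were detected well enough to be tested, and 2 of 6 blood, 2 of 9 neuronal, 2 of 6 epithelial and 3 of 10 embryonic stem cell probes were. Their differences ran from -0.12 to 0.29, the highest being miR-150, which was 0.15 without day 2 array 2. Of 7 smooth muscle and fibroblast markers tested, 4 had positive and 3 negative differences, from -0.18 (miR-214, -0.05 without day 2 array 2) to 0.30 (miR-143), with a median of 0.10. miR-143 averaged 1.28 ± 0.38 at day 4 and 0.98 ± 0.18 at day 2 (SD, n = 4 each), and its difference had a 95% interval of -0.06 to 0.65. In bulk RNA, more cells of a type and more of a miRNA per cell cannot be told apart.

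**Figure D4:**
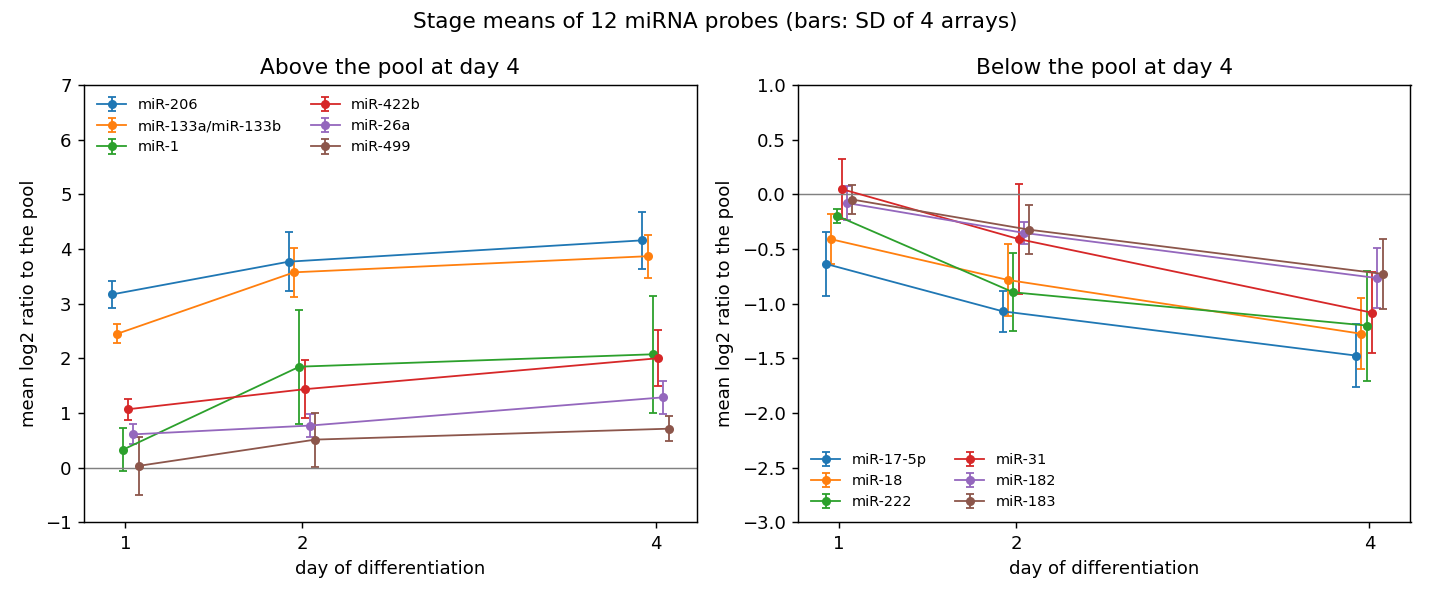
Mean log2 ratio to the proliferating pool (y axis) at days 1, 2 and 4 of differentiation (x axis) for 6 probes above the pool at day 4 (left) and 6 below it (right), with bars for the SD of 4 arrays. miR-206 had means of 3.17, 3.77 and 4.16 and miR-17-5p of -0.64, -1.07 and -1.48, and the day 2 and day 4 bars overlap for most probes.

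The channels were also read apart. The pool was the same RNA on every array, so a change in its channel between day 4 and day 2 arrays is no change in the pool's RNA. The channel values were brought to a common distribution of the mean of both channels, so stage signal enters the pool's values too. Which channel held the pool also rests on the choice of side above. In the pool channel 0 of 180 probes were called, 5 had an unadjusted p under 0.05, and the SD of the differences over probes was 0.334. In the stage channel 0 were called, 5 had an unadjusted p under 0.05 and the SD was 0.352. The ratio, with an SD of 0.211, varied less than either channel. For miR-206 the stage channel differed by -0.12 and the pool channel by -0.51, so its positive ratio difference came with a dimmer pool channel on the day 4 arrays. For miR-17-5p the stage channel differed by 0.01 and the pool channel by 0.41, and for miR-18 by -0.08 and 0.41. For miR-26a both channels were brighter on the day 4 arrays, by 0.90 in the stage and 0.38 in the pool channel, and for miR-31 the stage channel was dimmer by 0.53 with the pool brighter by 0.15. The part of labelling in these ratio differences was not tested.

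The authors' deposited table, 1 value per stage and probe, gave differences that correlated with those here at 0.889. Its day 4 minus day 2 differences over the 180 probes ran from -0.63 to 0.48, with 1 beyond 0.5 log2 units against 4 here. Single probes could differ: miR-376b* was 0.17 there against 0.66 here, and miR-687 was 0.41 against -0.21. The slope of its values on the ratios here was 0.866 for day 4 and 0.885 for day 2. In the authors' deposited table miR-206 stood at 3.92 at day 4 and 3.54 at day 2, and miR-1 at 1.52 at day 4 and 1.35 at day 2. Its scale and normalization are not stated, and its column medians were -0.01 for day 4 and -0.02 for day 2.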

How the data were processed

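The deposited array files give, per the file headers, an unnormalized foreground and background intensity per spot and channel. The deposited log2 ratio is, within 5e-10, that of the background-subtracted medians, not centred. The authors' scanner and the normalization of their value table are not given in the sources used here. From the median intensities, background was corrected with normexp (offset 50), ratios were loess-normalized within each array (controls weighted 0), and both spots of each probe entered as their mean (limma 3.58.1, R 4.3.3). A probe was detected if it passed percentile 95 of that array's Empty and negative-control signals. It was tested if its stage channel passed on at least 3 of 4 arrays of a stage, or if either channel passed on at least 3 proliferating arrays. The offset shrinks ratios of dim probes.

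The limma fit covered all 20 arrays with a dye term (15 residual and 7.32 prior degrees of freedom). It was also run on simulated normal noise with the channel sides taken as known. That run cannot test the choice of side or the effect of an array that stands apart. P-values were two-sided and Benjamini-Hochberg adjusted over 180 probes. They measure the spread between arrays. Named miRNAs were those with an unadjusted p under 0.05, the 10 highest and 10 lowest differences, all tested muscle-specific miRNAs, up to 4 members per other list and the largest of those called against the pool at both stages. Members, lists and rules were chosen with earlier results of these data known. Alternatives covered background, normalization, filters, arrays, turning and each array left out. The permutation test with the dye term removed was added after seeing the data, as were the values of every probe without each array and the interval counts by detection. Array numbers only name files and pair nothing. Array values have no depth, so the number of arrays limits precision.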

Additional observations from a re-analysis of the deposited data

Results flagged for a closer look

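Among the 18 probes with an unadjusted p under 0.05 or on the muscle-specific list, 36 groups of 4 arrays were examined for 1 array far from the other 3, and 1 was found. Chance marks about 1 in 20 groups. miR-191 on day 2 array 2 stood at -0.33, while the other day 2 arrays lay between 0.06 and 0.13. The gap took 0.847 of the whole range of the group, which is above Dixon's 95% critical value for 4 arrays.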

How the results depend on the processing

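Of the 30 alternatives, 29 gave 0 called probes between day 4 and day 2, and normexp with offset 0 gave 1, miR-376b*, at 1.64 (adjusted p = 0.0375), a dim probe that was not well above background on any day 2 array. The count at an unadjusted p under 0.05 was 8 with median centring or with the 8 arrays of days 2 and 4 alone, 20 without a filter, 21 with probes of all species, 5 with only red-channel stages, 8 with only green ones and 5 for the stage channel alone. Leaving out 1 array at a time gave 9 to 18. Intervals within 1 log2 unit numbered 113 of 117 under the strict filter, 338 of 343 without a filter, 475 of 488 with all species, 110 of 180 with only red-channel stages, 108 of 180 in the stage channel alone, and 165 to 176 without 1 array. Called probes between day 4 and day 1 numbered 7 to 19 without 1 array, and between day 2 and day 1 they numbered 2 with print-tip loess or median centring and 0 to 2 without 1 array. Of the 18 probes followed, 10 kept their direction in all alternatives. The stage channel alone turned miR-17-5p (0.00548), miR-140* (0.674) and miR-206 (-0.12). Scale normalization turned miR-1 (-0.13), miR-206 (-0.17) and miR-133a/miR-133b (-0.22). Green-channel stages alone turned miR-183 (0.0156) and miR-133a/miR-133b (-0.15), and red ones miR-1 (-0.14). miR-486 turned with median centring (-0.10) and without normalization (-0.15). Values of miR-499 without 1 array ran from -0.0112 to 0.420, and those of miR-1 without 1 array from -0.21 to 0.66. In the authors' deposited table the difference of miR-486 was 0.18. With the dye term removed, permutation p was 0.371 for miR-133a/miR-133b and 0.429 for miR-486. The causes were not tested. No paired analysis was possible because the labels number no replicates.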

Other observations

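miR-22, which targets HDAC4, was among the probes with values above the pool at both stages. It had ratios of 0.91, 0.52, 0.93 and 1.20 at day 4, against 1.41, 1.95, -0.04 and 0.65 at day 2, with SDs of 0.28 at day 4 and 0.87 at day 2. The difference between day 4 and day 2 was -0.10 (95% interval -0.75 to 0.55), and it turned to 0.24 without day 2 array 2. Day 2 arrays 1 and 2, where miR-22 was highest, were also those where miR-1 (2.36 and 3.07) and miR-422b (1.69 and 2.05) were highest among the day 2 arrays. These miRNAs were chosen for this after their values were seen, the arrays share the pool, and no test was made.

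The 308 tested probes without a mouse name, among them probes for miRNAs of other species, had 0 called between day 4 and day 2 by limma and 7 at an unadjusted p under 0.05, with differences of -0.79 to 0.47.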
